A study of Mus musculus with 12 samples.

Results

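The genes described here encode ion channels: potassium channels (Kcn), voltage-gated calcium channels (Cacn) and sodium channels (Scn), the proton-gated Asic channels and the Trpm cation channels, together with Abcc8, the sulfonylurea receptor that pairs with Kcnj11. They were taken by symbol from the count files, which gave 150 of 24421 genes. Among the 150, 4 symbols name antisense or noncoding transcripts (Kcnq1ot1, Kcnd3os, Kcnmb4os1 and Kcnmb4os2) and no channel. Pancreatic islets, which hold the insulin-secreting β cells among other endocrine cells, gave 6 bulk RNA-seq libraries from Il22ra1βKO mice (BKO), labelled as knockout of the interleukin-22 receptor gene Il22ra1 in β cells, and 6 from Ins2Cre mice (Cre), the controls. All were on a high-fat diet (HFD), given as 6-week. The control genotype is named for a Cre recombinase under the insulin gene Ins2. Age, sex and strain, and whether a library is 1 animal, are not given in the labels used here, and p-values cover only the spread among these libraries, which may be technical.

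In the β cell, glucose metabolism raises ATP, which closes the ATP-sensitive potassium (KATP) channel built from Kcnj11 and Abcc8. The membrane then depolarises, voltage-gated calcium channels open, and the calcium that enters triggers insulin granule release, while voltage-gated and calcium-activated potassium channels end each spike. Sodium channels shape the upstroke and Trpm channels carry depolarising background current. In the epithelium of ducts, potassium channels such as Kcnn4 and Kcnq1 with its partner Kcne3 set the driving force for fluid and anion secretion.

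The libraries held 10356093 to 11902217 gene reads in BKO and 11444273 to 12397139 in Cre. The share of reads set aside for low alignment quality was 16.7% to 20.5% in BKO and 16.9% to 27.3% in Cre libraries, with Cre-1 highest. Il22ra1 itself had 1 to 3 reads per library in BKO and 1 to 5 in Cre, too few to check the genotype. Ins2 was at 54400 to 93700 CPM (counts scaled to a common library total) in BKO and 65100 to 86400 CPM in Cre libraries. The 8 β-cell markers summed to 96600 to 154000 CPM in BKO, against 119200 to 150200 CPM in Cre, and all 8 had a negative log2 fold change. All 10 endothelial markers had a positive one, summing to 521.8 to 715.7 CPM in BKO, against 405.6 to 573.5 CPM in Cre. All 5 α-cell markers were also on the higher side (12450 to 25280 CPM in BKO, 9181 to 14500 CPM in Cre). No marker of these 3 lists was at 0. In whole islets, fewer cells of a type and less RNA per cell cannot be told apart.

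No channel gene passed the adjusted threshold in edgeR, and the KATP, Cacna1d and Cacna1a transcripts of β-cell excitability had close levels in the 2 genotypes. The 6 that DESeq2 called were the proton-gated channel Asic1 and the A-type potassium channel Kcnd1, which were lower in BKO, and 4 potassium channel genes found in epithelia, Kcnk5, Kcne3, Kcnn4 and Kcnq1, which were higher. Kcnq1 entered the test mainly through its BKO libraries, with 6 of them over the count filter of 0.865 CPM, against 2 Cre libraries, so its direction is not independent of the filter. Of 86 members with enough reads to test, the quasi-likelihood test of edgeR, adjusted by Benjamini-Hochberg over all 13583 genes tested, called 0 higher and 0 lower at 0.05, as for all genes (0% called). At an unadjusted p under 0.05, 10 members were higher and 9 lower in BKO. That is 11.6% and 10.5% of the members, beside 8.7% and 4.66% of all genes. The share on the higher side is near the background. It includes Kcnip2 and Cacng7, which like Kcnq1 entered the test mainly through their BKO libraries, so that count is not independent of the filter. The DESeq2 calls were 4 of 100 members higher, beside 1.01% of all 14916 genes it adjusted, and 2 of 100 lower, beside 0.335%; limma-voom called 0 in each direction, of members and of all genes. Over all members tested the median log2 fold change was 0.047, beside 0.0078 over all genes tested, with 49 members positive and 37 negative.

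Promoters are shown for those of the 6 genes that the RefSeq table of GRCm38.p6 holds, because these are the channel genes with an adjusted call. Each runs from 250 bases before to 50 after a listed start, 5′ to 3′ on the gene's strand. Capitals mark matches on either strand to the E-box CANNTG, the site class of basic helix-loop-helix factors. The sites searched were this one, the STAT-type site TTCNNNGAA, read by the STAT factors that act below the interleukin-22 receptor, and the TATA box TATAAA.
Asic1 (chr15:99691974-99692273, plus strand): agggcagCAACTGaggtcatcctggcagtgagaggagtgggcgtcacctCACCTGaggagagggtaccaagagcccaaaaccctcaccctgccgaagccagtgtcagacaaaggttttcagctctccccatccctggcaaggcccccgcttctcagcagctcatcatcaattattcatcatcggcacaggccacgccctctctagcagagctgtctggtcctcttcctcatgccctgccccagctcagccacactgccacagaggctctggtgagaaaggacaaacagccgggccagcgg
Kcnk5 (chr14:20181733-20182032, minus strand): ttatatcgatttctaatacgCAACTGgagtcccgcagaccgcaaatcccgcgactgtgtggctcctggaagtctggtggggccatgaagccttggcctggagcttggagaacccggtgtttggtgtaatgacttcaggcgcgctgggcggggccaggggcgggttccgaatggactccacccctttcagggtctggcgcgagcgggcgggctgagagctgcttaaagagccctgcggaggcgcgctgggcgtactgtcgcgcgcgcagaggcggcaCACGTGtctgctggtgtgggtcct
Kcnn4 (chr7:24370013-24370312, plus strand): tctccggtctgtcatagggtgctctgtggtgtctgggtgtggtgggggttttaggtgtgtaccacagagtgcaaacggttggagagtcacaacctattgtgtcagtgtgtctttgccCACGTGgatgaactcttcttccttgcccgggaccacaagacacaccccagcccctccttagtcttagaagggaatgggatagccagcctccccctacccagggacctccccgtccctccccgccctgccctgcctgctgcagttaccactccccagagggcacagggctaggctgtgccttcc
Kcne3, start at chr7:100176420-100176719, plus strand: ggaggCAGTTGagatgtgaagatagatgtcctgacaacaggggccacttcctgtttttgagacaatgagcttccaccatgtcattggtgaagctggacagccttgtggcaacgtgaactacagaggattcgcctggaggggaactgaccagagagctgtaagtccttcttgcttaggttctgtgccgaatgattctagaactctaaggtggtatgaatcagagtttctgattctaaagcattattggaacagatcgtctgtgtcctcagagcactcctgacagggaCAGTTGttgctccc
Kcne3, start at chr7:100178433-100178732, plus strand: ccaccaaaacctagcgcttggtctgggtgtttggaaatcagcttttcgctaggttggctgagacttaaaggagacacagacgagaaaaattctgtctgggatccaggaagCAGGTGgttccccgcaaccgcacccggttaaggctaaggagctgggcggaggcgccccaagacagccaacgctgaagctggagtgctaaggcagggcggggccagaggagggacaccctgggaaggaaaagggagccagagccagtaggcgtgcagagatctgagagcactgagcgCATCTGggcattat
None of these 5 windows held the STAT-type or the TATA letters, which are in 8.3% and 13.6% of the 32851 promoters of the table. E-box letters were in all 5, with 2 matches in each except Kcnn4, which had 1, and in 72.3% of all promoters. The Kcnk5 window had 63.7% GC and 26 CpG dinucleotides, against a median over all promoters of 52.7% and 7. The Asic1 and Kcnn4 windows both had 59.7% GC, with 7 and 6 CpG. The Asic1 start in this table lies inside the GENCODE gene, which begins upstream at 99670368.

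**Figure D1:**
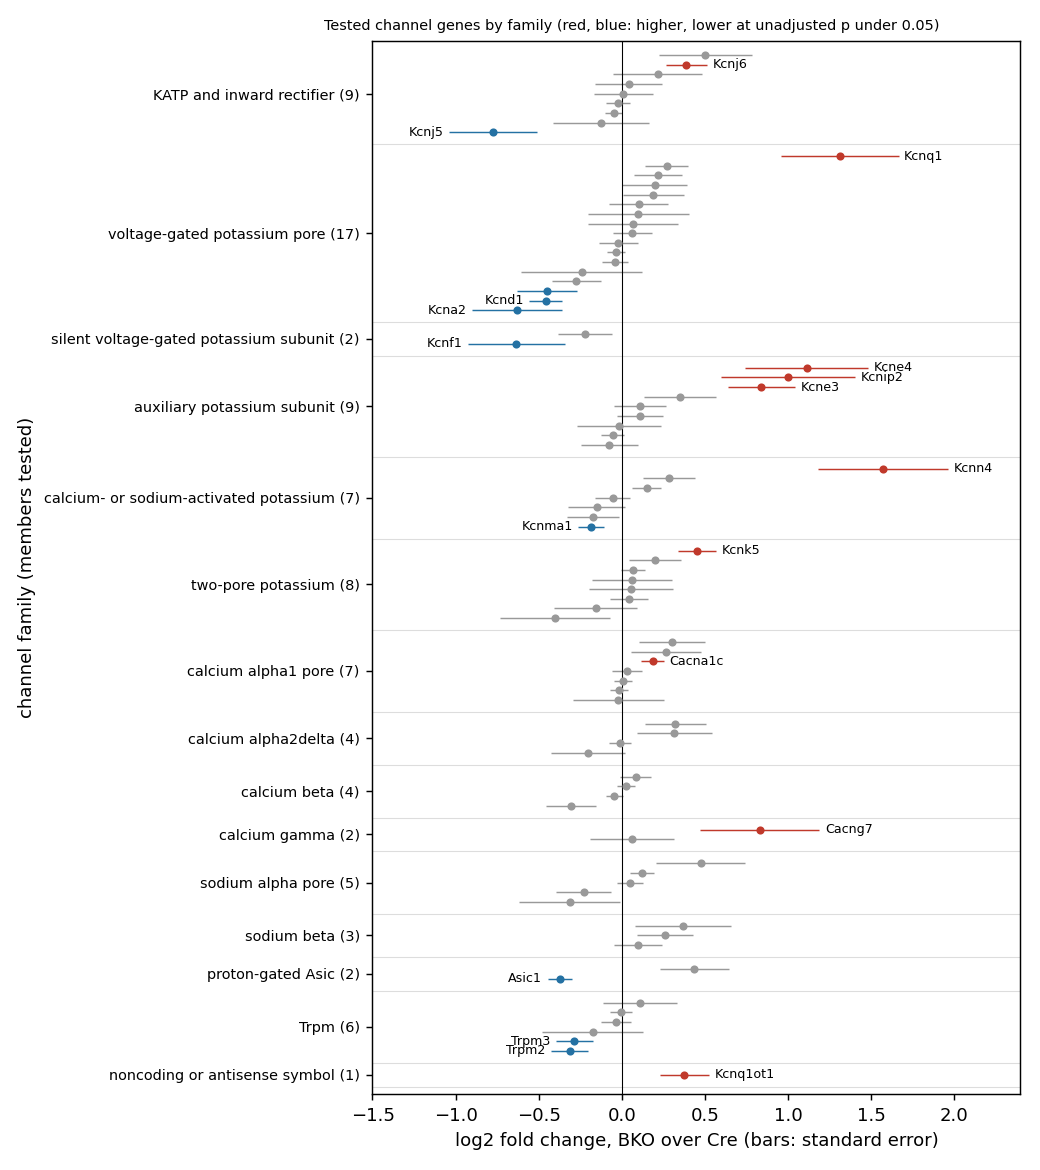
Log2 fold change of BKO over Cre (x axis) with its standard error (bars) for the 86 channel genes tested, 1 line per gene, grouped by family (y axis, with the number tested). Genes at an unadjusted p under 0.05 are coloured, 10 higher in red and 9 lower in blue, with names for those reported; the values reach from -0.77 (Kcnj5) to 1.57 (Kcnn4).

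The KATP channel was the most abundant channel transcript pair and had like levels in both genotypes. Abcc8 and Kcnj11 are neighbours on chromosome 7 of mm10, from 46104523 to 46180033 and from 46093953 to 46100764, both on the minus strand. Per kilobase of exon, Abcc8 was at 127 ± 14.3 CPM in BKO, against 129 ± 9.70 CPM in Cre (SD over 6 libraries each), the highest of all 150 members. Its libraries had 1220, 948, 1040, 877, 1040 and 1050 CPM in BKO, and 1070, 1100, 1040, 911, 1010 and 1140 CPM in Cre. The groups overlapped over nearly their whole range, and the BKO to Cre ratio was 0.984 with a 95% interval of 0.886 to 1.09 (edgeR adjusted p = 0.939). Kcnj11, the pore of the channel, had 212, 194, 209, 182, 203 and 209 CPM in BKO, against 198, 218, 197, 218, 204 and 215 CPM in Cre. Its ratio was 0.966, with an interval of 0.897 to 1.04 (edgeR adjusted p = 0.748).

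Among the other inward rectifiers, 2 of the 9 tested members of the Kcnj and Abcc8 family had an unadjusted p under 0.05, 1 in each direction, beside 8.7% higher and 4.66% lower over all genes. Kcnj5 and Kcnj6 both encode subunits of the G protein-gated potassium channel that receptors for somatostatin and adrenaline open. Kcnj6 had 13.8, 15.7, 10.1, 10.8, 13 and 14 CPM in BKO, against 9.89, 8.78, 10.7, 7.68, 11.7 and 10.2 CPM in Cre. The BKO libraries were the higher ones with some overlap, a log2 fold change of 0.39 ± 0.12 (SE; edgeR adjusted p = 0.198). With the endothelial marker score as a covariate, which was itself higher in BKO, it was 0.086. Kcnj5 had 3.19, 6.89, 7.41, 12.2, 4.92 and 6.29 CPM in BKO, against 8.77, 7.84, 14.2, 12.2, 11.4 and 15.6 CPM in Cre. All BKO libraries except BKO-4 were below every Cre library, and the log2 fold change was -0.77 ± 0.26 (edgeR adjusted p = 0.236). Kcnj8, the KATP pore of pericytes and smooth muscle, was at 4.57 ± 2.38 CPM in BKO, against 4.98 ± 1.30 CPM in Cre (SD over 6 libraries each). BKO-4 had 9.06 CPM, where Cre reached 6.26 CPM at most. Without BKO-4 the log2 fold change of Kcnj8 was -0.46 ± 0.23 (SE, edgeR adjusted p = 0.303). The median log2 fold change of the family was 0.0096, beside 0.0078 over all genes.

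Among voltage-gated potassium channels, the well-expressed Kcnh2 had close values and the A-type gene Kcnd1 was lower in BKO. Kcnh2, an ERG-type channel with the highest level per kilobase of the family over both genotypes together, close to that of Kcnh6 (22.7 ± 2.38 CPM in BKO, 23.4 ± 2.37 CPM in Cre, SD over 6 libraries each), had a ratio of 0.973 and an interval of 0.871 to 1.09. Kcnd1, which encodes the A-type channel Kv4.1, lies on chromosome X from 7822289 to 7838280 with no exon shared with another gene. It had 6.64, 7.15, 7.68, 6.88, 6.81 and 6.76 CPM in BKO, against 8.94, 9.80, 8.98, 10.2, 8.89 and 10.8 CPM in Cre. Every BKO library was below every Cre library. It was the single member among 86 with that pattern in the lower direction (1.16% of members, beside 0.177% of all genes), at a ratio of 0.728 (95% interval 0.631 to 0.841; exact two-sided permutation p = 0.00216, the smallest that 924 splits can give). The edgeR adjusted p was 0.121 and that of DESeq2 0.0147; edgeR called it without BKO-4 (adjusted p = 0.0388) and without Cre-5, with 2 of 86 members lower there (Asic1 and Kcnd1, 2.33%, beside 0.0367% of all genes) and 0 higher, beside 0.77%. Its relatives Kcnd2 and Kcnd3 had too few reads to test.

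Of the 17 tested pore genes of this class, 9 had a positive and 8 a negative log2 fold change, with a median of 0.062 that became -0.053 without BKO-1. The silent subunits, which form no channel alone and modify other pores, had 2 tested members, both on the lower side. Kcng3 was at 5.90 ± 1.39 CPM in BKO, against 6.87 ± 1.21 CPM in Cre, and Kcnf1 is described with the BKO-4 library below. Auxiliary subunits had a median of 0.11 over 9 tested genes, which became 0.22 without BKO-4. Kcnip1, a calcium-binding partner of Kv4 channels and the best expressed of them, was at 97.0 ± 10.1 CPM in BKO, against 101 ± 7.68 CPM in Cre (SD over 6 libraries each). Kcnip2, of the same group, had only 72 reads in all BKO and 38 in all Cre libraries, with a log2 fold change of 1.00 ± 0.40 (edgeR adjusted p = 0.292). Like Cacng7, Kcnc1 and Kcnq1, it reached the count filter mainly through its BKO libraries (5 above 0.865 CPM, against 1 in Cre), so its place among the tested genes is not independent of its direction.

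**Figure D2:**
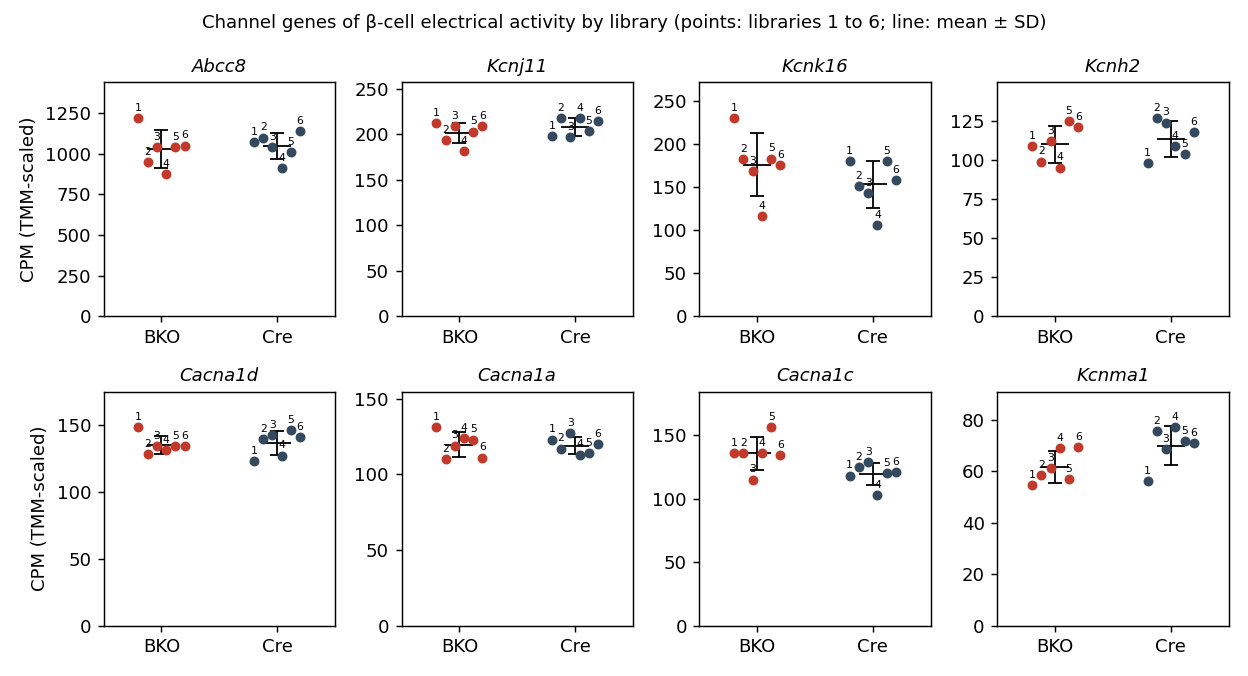
CPM on TMM-scaled library sizes (y axis, from 0) in each BKO and Cre library (points numbered 1 to 6, BKO left) for 8 channel genes of β-cell electrical activity, with the mean and SD as lines. The groups overlap in all 8; Cacna1c is higher in BKO (136 against 119 CPM) and Kcnma1 lower (61.6 against 70.0 CPM), neither past the adjusted threshold.

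The L-type calcium channel genes with enough reads to test are Cacna1c and Cacna1d. The other L-type genes, Cacna1f and Cacna1s, had too few. Cacna1c, which encodes Cav1.2, the main calcium channel of the mouse β cell, had 136, 136, 115, 136, 156 and 134 CPM in BKO, against 118, 125, 129, 103, 120 and 121 CPM in Cre. All BKO libraries except BKO-3 were above every Cre library. The ratio was 1.14 with a 95% interval of 1.03 to 1.26 (log2 fold change 0.19 ± 0.067, adjusted p = 0.246 by edgeR; exact two-sided permutation p = 0.0260). With the endothelial score as a covariate the log2 fold change was 0.060. Cacna1d, which encodes Cav1.3, was at 135 ± 6.68 CPM in BKO, against 137 ± 9.19 CPM in Cre (SD over 6 libraries each), a ratio of 0.988 with an interval of 0.913 to 1.07. The P/Q-type gene Cacna1a had a ratio of 1.01 and an interval of 0.931 to 1.09. The difference between Cacna1c and Cacna1d in their response was not tested.

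The partners of these pores had close values in the 2 genotypes where they were well expressed. Cacna2d1, an α2δ subunit that brings the pore to the membrane, had a ratio of 0.992 (95% interval 0.899 to 1.10). Cacnb3 and Cacnb2, cytosolic β subunits, had ratios of 1.02 (0.938 to 1.10) and 0.969 (0.898 to 1.05). Medians of the log2 fold change were 0.032 over 7 α1 genes, 0.15 over 4 α2δ genes and -0.010 over 4 β genes. Only 2 of the 8 γ genes had reads enough to test. Cacng7 was one of them, at 1.25 ± 0.291 CPM in BKO, against 0.692 ± 0.386 CPM in Cre (SD over 6 libraries each; edgeR adjusted p = 0.327). The R-type gene Cacna1e was not tested, with 48 reads in all BKO and 25 in all Cre libraries.

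Among calcium-activated potassium channels, the large-conductance pore and the intermediate-conductance one lay on opposite sides. Kcnma1, the BK channel, was at 61.6 ± 6.28 CPM in BKO, against 70.0 ± 7.45 CPM in Cre (SD over 6 libraries each), a log2 fold change of -0.18 ± 0.078 (edgeR adjusted p = 0.318). All 6 BKO libraries were under the Cre mean. Its β subunit Kcnmb2 had a ratio of 0.963 (95% interval 0.827 to 1.12). Kcnn3, a small-conductance channel, had a ratio of 1.11 (0.976 to 1.26). Kcnn4, the intermediate-conductance channel of epithelia and lymphocytes, had the highest log2 fold change of all tested members, 1.57 ± 0.39, with an edgeR adjusted p of 0.156 and a DESeq2 adjusted p of 0.00789. The family median was -0.055 over 7 genes.

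Kcnk16, or TALK-1, a background potassium channel of β cells, was the second most abundant member per kilobase, at 73.8 ± 15.3 CPM in BKO, against 64.3 ± 11.6 CPM in Cre (SD over 6 libraries each). It varied more than Kcnj11 within each genotype, from 116 to 230 CPM over BKO and from 106 to 180 CPM over Cre libraries before division by length, and its ratio of 1.15 had an interval of 0.904 to 1.46. Kcnk5, or TASK-2, an alkaline-activated channel of epithelia, lies near it on chromosome 14 (20140057 to 20181809, with Kcnk16 at 20261376 to 20269199, both on the minus strand). Kcnk5 had 9.22, 11.9, 10.5, 9.23, 10.6 and 11.3 CPM in BKO, against 6.62, 9.12, 7.79, 6.27, 8.40 and 7.54 CPM in Cre. Every BKO library was above every Cre library, the single such case among the 86 in the higher direction (1.16% of members, beside 0.331% of all genes). The ratio was 1.37 with a 95% interval of 1.16 to 1.62 (adjusted p = 0.148 by edgeR and 0.0388 by DESeq2). The exact two-sided permutation p of 0.00216 is the smallest possible and follows from the lack of overlap.

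**Figure D3:**
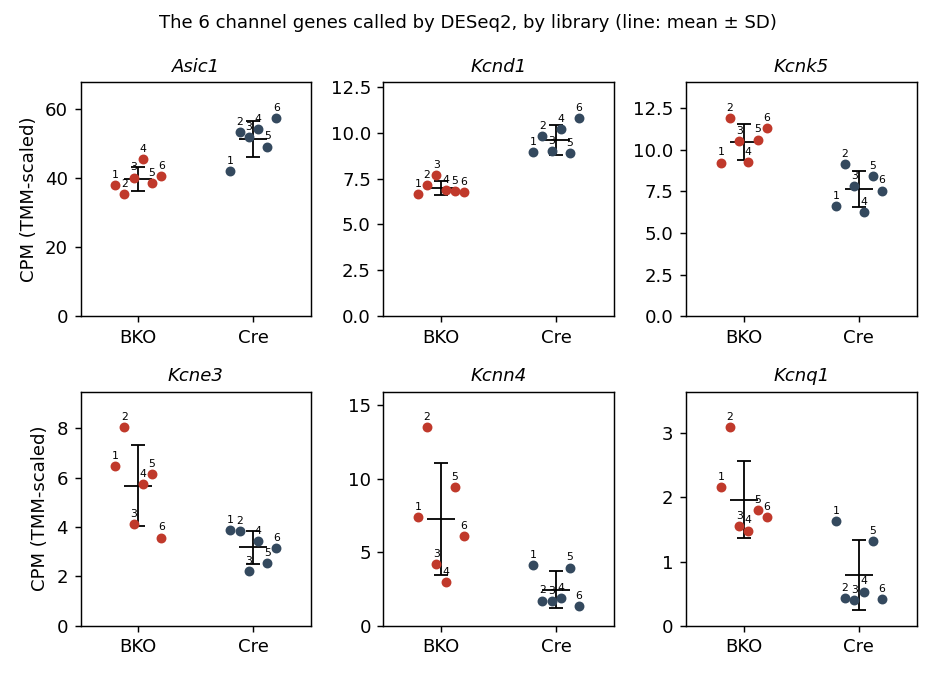
CPM on TMM-scaled library sizes (y axis, from 0) in each BKO and Cre library (points numbered 1 to 6, BKO left) for the 6 channel genes that DESeq2 called, with the mean and SD as lines. Kcnd1 and Kcnk5 have no overlap between genotypes; in Kcnn4 and Kcnq1 the libraries Cre-1 and Cre-5 lie above the other Cre libraries.

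The other epithelial genes, Kcnn4, Kcnq1 and Kcne3, varied more between libraries than Kcnk5. Kcnn4 had 7.41, 13.5, 4.21, 2.96, 9.45 and 6.10 CPM in BKO, against 4.13, 1.70, 1.67, 1.85, 3.95 and 1.32 CPM in Cre. BKO-2 and BKO-5 were the highest, and BKO-4 lay among the Cre libraries; the ratio was 2.98 with a 95% interval of 1.66 to 5.36, and 3.30 without BKO-4, where edgeR called it (adjusted p = 0.0311). Kcnq1, a potassium channel pore that Kcne3 holds open in epithelia, had 2.16, 3.09, 1.55, 1.48, 1.80 and 1.69 CPM in BKO, against 1.63, 0.426, 0.397, 0.530, 1.32 and 0.414 CPM in Cre. Cre-1 lay inside the BKO range, Cre-5 just under it, and the other 4 Cre libraries well under it. With 131 reads in all BKO and 56 in all Cre libraries the ratio was 2.48 (interval 1.49 to 4.16; edgeR adjusted p = 0.156, DESeq2 adjusted p = 0.0468, with the filter limit given above). Kcne3 was at 5.68 ± 1.63 CPM in BKO, against 3.18 ± 0.676 CPM in Cre (SD over 6 libraries each), a ratio of 1.79 (1.33 to 2.41; edgeR adjusted p = 0.146, DESeq2 adjusted p = 0.0222). Kcne4, an inhibitory partner of Kcnq1, was at 4.43 ± 2.66 CPM in BKO, against 2.04 ± 0.799 CPM in Cre (log2 fold change 1.11 ± 0.37, edgeR adjusted p = 0.222).

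The duct keratin Krt19 had 22.9, 40.0, 11.9, 15.2, 38.9 and 18.1 CPM in BKO, against 13.4, 15, 5.40, 6.62, 12.1 and 2.24 CPM in Cre, with BKO-2 and BKO-5 again highest. Among Cre libraries it was highest in Cre-2, where Kcnn4 and Kcnq1 were low. Of the 5 duct markers 4 had a positive log2 fold change, Krt19 the highest at 1.43, and Cftr, the chloride channel of duct cells, a negative one of -0.69 (5.10 ± 4.16 CPM in BKO, against 8.26 ± 1.96 CPM in Cre); none was at 0, and their sum, most of it Spp1, was 990.7 to 2125 CPM in BKO, against 1215 to 1831 CPM in Cre. With the endothelial score as a covariate the log2 fold change of Kcnn4 was 0.36, that of Kcnq1 0.41, that of Kcne4 0.025, that of Kcne3 0.67 and that of Kcnk5 0.24. The part of duct and endothelial cells in these differences was not tested. Kcnq1 shares 2.96% of its exon length with the antisense transcript Kcnq1ot1, and whether counting used strand is not stated. Kcnq1ot1 itself was at 20.9 ± 4.40 CPM in BKO, against 16.1 ± 3.18 CPM in Cre (SD over 6 libraries each; log2 fold change 0.38 ± 0.15, edgeR adjusted p = 0.288), and reads of the 2 genes in the shared stretch cannot be told apart.

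**Figure D4:**
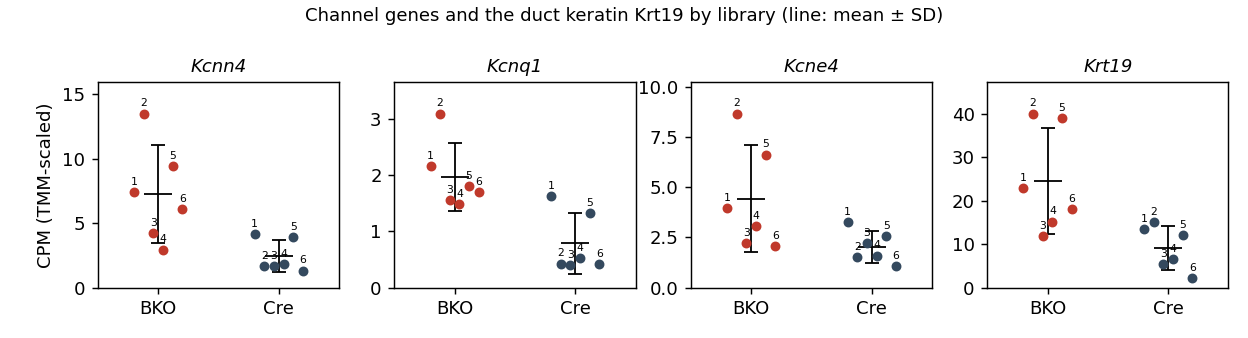
CPM on TMM-scaled library sizes (y axis, from 0) in each BKO and Cre library (points numbered 1 to 6, BKO left) for Kcnn4, Kcnq1, Kcne4 and the duct keratin Krt19, with the mean and SD as lines. BKO-2 is the highest library in all 4 panels, and BKO-5 the next highest in all but Kcnq1.

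Asic1 was the channel gene with the smallest p. It encodes a sodium channel opened by extracellular protons, known mainly from neurons, and lies at 99670368 to 99701130 of chromosome 15, plus strand. It had 38.0, 35.5, 40.2, 45.6, 38.7 and 40.6 CPM in BKO, against 42.2, 53.4, 52.0, 54.3, 49.2 and 57.5 CPM in Cre. The groups overlapped only because BKO-4 was above Cre-1. The ratio was 0.773 with a 95% interval of 0.693 to 0.862 (log2 fold change -0.37 ± 0.075, adjusted p = 0.121 by edgeR and 0.00704 by DESeq2; exact two-sided permutation p = 0.00433). EdgeR called it without BKO-4 (adjusted p = 0.0173), without Cre-5 and without Cre-1, where it was the only member called (1.16% lower, beside 0.0366% of all genes; 0 higher, beside 0.00732%), and in none of the other 9 omissions of a library. With the endothelial score as a covariate its log2 fold change was -0.22. Asic2, the other tested member of the family, lay on the opposite side, at 4.49 ± 1.16 CPM in BKO, against 3.31 ± 0.867 CPM in Cre (SD over 6 libraries each; edgeR adjusted p = 0.377).

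The Trpm genes were mostly on the lower side, with 5 of 6 tested members negative and a median of -0.10, which was 0.025 with the endothelial score as a covariate. Trpm2, a calcium-permeable channel opened by ADP-ribose and oxidants, had 17.8, 12, 15.6, 17.9, 12.4 and 12.1 CPM in BKO, against 16.6, 19.8, 17.2, 19.2, 17.0 and 19.5 CPM in Cre. BKO-1 and BKO-4 lay within the Cre range and the other 4 BKO libraries under it, for a log2 fold change of -0.31 ± 0.11 (edgeR adjusted p = 0.238). With the endothelial score as a covariate it was 0.0056. Trpm3, a steroid-gated channel of β cells, was at 17.9 ± 2.96 CPM in BKO, against 21.8 ± 2.82 CPM in Cre (SD over 6 libraries each; log2 fold change -0.28 ± 0.11, edgeR adjusted p = 0.276). Trpm5, a calcium-activated monovalent cation channel and the best expressed of the family per kilobase, was at 41.9 ± 15.4 CPM in BKO, against 38.9 ± 7.14 CPM in Cre, with BKO-1 at 69.1 CPM. Its log2 fold change of 0.11 ± 0.22 turned to -0.10 without BKO-1 and to -0.0013 with limma-voom. Trpm7 and Trpm4 had ratios of 0.998 (95% interval 0.905 to 1.10) and 0.975 (0.855 to 1.11).

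Sodium channel pores had no tested member at an unadjusted p under 0.05 with all libraries. Scn9a, or Nav1.7, the most abundant of them, had 93.7, 129, 121, 200, 90.9 and 132 CPM in BKO, against 157, 138, 162, 147, 149 and 146 CPM in Cre. BKO-4 was above every Cre library and the other 5 BKO libraries were below every one, so that the spread was 39.5 CPM (SD) in BKO and 8.53 CPM in Cre. The ratio was 0.853 with a 95% interval of 0.665 to 1.09, and 0.748 without BKO-4, where edgeR called it (adjusted p = 0.0388). Scn3a and Scn8a had ratios of 1.09 (0.981 to 1.21) and 1.04 (0.925 to 1.16).

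BKO-4 was also the highest BKO library in further members, among them Asic1, Trpm2 and Trpm3. These members also include 3 potassium channel genes that edgeR called without BKO-4, Kcna2, Kcnf1 and Kcnj5. In these 3, unlike in Scn9a, BKO-4 lay inside the Cre range. In Kcnj8 and Trpm1 it lay above that range, at 9.06 and 20.5 CPM, where Cre reached 6.26 and 14.75 CPM. It was also above the Cre range in Kcnab1, Kcnb2, Kcnk10 and Scn4a. Kcna2, a low-threshold voltage-gated channel, had 16.8, 24.0, 18.9, 47.4, 15.2 and 31.8 CPM in BKO, against 28.9, 34.2, 44.3, 48.7, 41.4 and 41.6 CPM in Cre. Kcnf1, the silent subunit, had 4.05, 6.09, 5.67, 14, 7.85 and 3.75 CPM in BKO, against 7.48, 8.01, 11.2, 14.1, 11 and 12.6 CPM in Cre. In both, BKO-4 was near the top of the Cre range; of the other 5 BKO libraries, 4 were under the whole Cre range and 1 was inside it (BKO-6 in Kcna2, BKO-5 in Kcnf1). With all libraries the log2 fold changes were -0.63 ± 0.27 for Kcna2 and -0.63 ± 0.29 for Kcnf1 (edgeR adjusted p = 0.349 and 0.372). Fitted beside the endothelial score they were -0.41 and -0.48. Without BKO-4, and without that score, they were -0.92 ± 0.20 and -0.99 ± 0.20, and that of Kcnj5 was -1.04 ± 0.22. EdgeR called all 3 there (adjusted p = 0.0456, 0.0280 and 0.0311). Without BKO-4, edgeR called 6 of 86 members lower (6.98%, beside 0.93% of all genes) and 1 higher (1.16%, beside 0.989%). BKO-4 was chosen for description after its values were seen, and nothing in the labels sets it apart. Each BKO library was the highest in some members, and how often BKO-4 was so was not compared with the others.

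**Figure D5:**
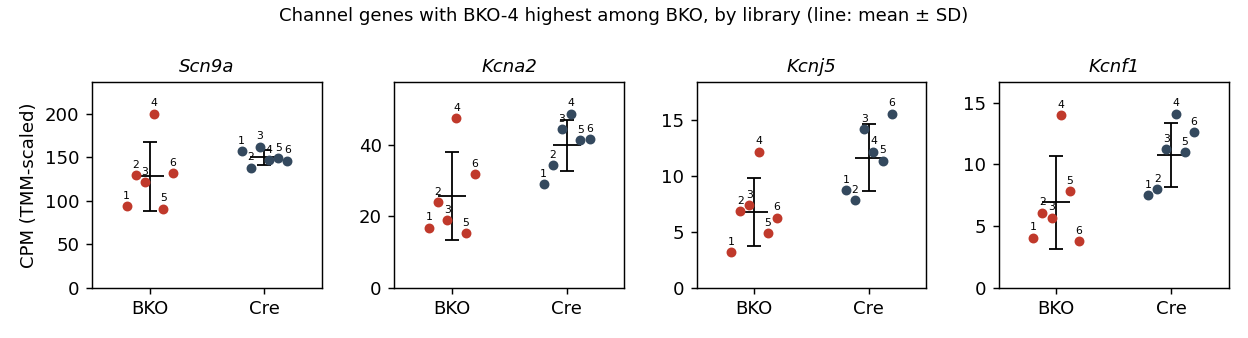
CPM on TMM-scaled library sizes (y axis, from 0) in each BKO and Cre library (points numbered 1 to 6, BKO left) for Scn9a, Kcna2, Kcnj5 and Kcnf1, with the mean and SD as lines. BKO-4 is the highest BKO library in each, at 200, 47.4, 12.2 and 14 CPM.

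Across the members, a higher level went with a smaller absolute difference. The 20 tested members at 5 CPM per kilobase or more had a median absolute log2 fold change of 0.051 with a median standard error of 0.072, and 2 of them, Asic1 and Cacna1c, had an unadjusted p under 0.05. The other 66 had medians of 0.23 and 0.20, with 17 at that p, beside 8.7% higher and 4.66% lower over all genes. Since low counts also give larger errors, these medians describe precision as well as difference. Of the 150 members, 64 were not tested, 9 of them with no read in any library, and none of the 64 had over 27 reads in a library. Of 31 members listed for β-cell excitability, 29 were tested, 15 positive and 14 negative, with a median log2 fold change of 0.0080. At an unadjusted p under 0.05, 4 were higher and 3 lower, beside 8.7% and 4.66% of all genes. The higher ones include Kcnn4 and Kcnq1, described above with the epithelial genes. The 4 listed for duct and acinar cells (Kcnn4, Kcne3, Kcnk1 and Kcnk5) were all positive with a median of 0.65, and Kcnn4 is in both lists. Kcnn4, Kcne3 and Kcnk5 are also genes that DESeq2 called higher. The lists were chosen with earlier results of these data known, so this median is not independent of those calls. Of 5 listed for vascular and mural cells, 4 were positive, with a median of 0.070, and both tested members of the 3 listed for glia were positive, with a median of 0.29.

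Calcium-handling genes and other currents outside these families were read from the same fit. Of 69 such genes, 59 were tested and edgeR called 0 over all genes; 6 were higher and 4 lower at an unadjusted p under 0.05, beside 8.7% and 4.66% of all genes, with a median log2 fold change of 0.022. Both endoplasmic reticulum calcium pumps of the list were among the lower ones. Atp2a3, or SERCA3, had 846, 772, 858, 889, 811 and 898 CPM in BKO, against 842, 1070, 1020, 1050, 973 and 1110 CPM in Cre, with Cre-1 alone inside the BKO range. Its log2 fold change was -0.26 ± 0.064 (edgeR adjusted p = 0.148, DESeq2 adjusted p = 0.0162). Fitted beside the endothelial score it was -0.12. Atp2a2, or SERCA2, was at 1557 ± 115 CPM in BKO, against 1759 ± 152 CPM in Cre (SD over 6 libraries each; log2 fold change -0.18 ± 0.066, edgeR adjusted p = 0.261). Beside the endothelial score its log2 fold change was -0.16. On the higher side was Ano1, a calcium-activated chloride channel of acinar and duct epithelia, at 7.0 ± 3.38 CPM in BKO, against 3.47 ± 1.30 CPM in Cre (log2 fold change 1.01 ± 0.33, edgeR adjusted p = 0.222), with BKO-2 and BKO-5 highest at 11.9 and 10.1 CPM. With the endothelial score as a covariate its direction turned, to -0.11, and with the acinar score it was 0.77.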

How the data were processed

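Per the labels' protocols, islet RNA was sequenced in paired ends. The submitters' processing notes name HISAT2 2.0.5 with HTSeq on mm10, and no annotation or strand setting is given there. The deposited files hold raw read counts per gene symbol; the 5 summary lines of htseq-count (34.7% to 45.8% of all counted reads) were left out. A series-wide table was not used here.

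EdgeR 4.0.16 (R 4.3.3) was run on all genes: filterByExpr, TMM scaling, robust quasi-likelihood test, Benjamini-Hochberg adjustment at 0.05, with 13583 of 24421 genes tested. CPM use TMM-scaled totals; CPM per kilobase divide by the union of exons in GENCODE M21 (GRCm38, which is mm10). Exact permutation tests use log2(CPM + 0.1). Standard errors were derived from edgeR's log2 fold change and F statistic, and intervals of ratios from these with a t quantile. Alternatives used DESeq2 1.42.0 and limma 3.58.1. The edgeR step was also run on simulated counts. Gene totals were 10356093 to 12397139 per library; 3 reads equal 0.238 to 0.284 CPM. No 2 libraries of a genotype matched within counting noise. The channel genes and lists were chosen with earlier results of these data known. Named are Il22ra1, a few fixed channel genes, members with an unadjusted p under 0.05 or called by DESeq2 or under the replicate block, and the best expressed of each family per kilobase; further names are comparisons within families. Some members that meet this rule are not reported here; they stay in the counts and medians.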

Additional observations from a re-analysis of the deposited data

Results flagged for a closer look

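Within-group gaps were examined in the 30 named members, 60 groups of 6 libraries, of which chance alone would flag about 1 in 20. In 3 cases a single library stood far from the other 5 of its genotype. Scn9a had 200 CPM in BKO-4, and the next BKO library was at 132 CPM. Cacna1d had 148 CPM in BKO-1, and the next BKO library was at 134 CPM. Cacnb3 had 68.7 CPM in BKO-3, and the next lowest BKO library was at 82.3 CPM.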

How the results depend on the processing

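RLE and upper-quartile scaling, both count filters and limma-voom left the call count at 0 members. DESeq2 called 4 higher and 2 lower. The replicate block called 4 higher and 2 lower of 86 members, beside 2.15% and 0.53% of all genes; same-numbered libraries correlated at -0.0725 to 0.264, best with their own number in 4 of 6, so the numbers are not taken as pairs. Leaving out 1 library gave 0 to 1 member called higher and 0 to 6 lower. At an unadjusted p under 0.05, the endothelial score as a covariate left 2 higher and 2 lower. The acinar score left 5 lower, and the higher ones there included Kcne3 (log2 fold change 0.73) and Cacna1c (0.17). The share over all genes was not counted for these fits, so whether these counts exceed the background cannot be told. The higher genes named for the acinar score are examples, given without a count. At the adjusted threshold edgeR called 0 of all genes in either direction with either score. Family medians moved to 0.17 for calcium α1 pores (acinar score), -0.13 for sodium β and 0.025 for Trpm (endothelial score), and ranged without 1 library from -0.053 to 0.084 for voltage-gated potassium pores and from 0.063 to 0.22 for auxiliary subunits. Log2 fold changes turned sign with the endothelial score, among them those of Kcnk16 (0.20) and Trpm2 (-0.31), to 0.020 for Abcc8, 0.086 for Cacna2d1, -0.050 for Cacnb3, 0.025 for Kcnh2, 0.080 for Kcnip1, -0.033 for Kcnk16, 0.066 for Kcnmb2 and 0.0056 for Trpm2. With the acinar score they turned to 0.0058 for Abcc8 and 0.0057 for Cacna1d, and with limma-voom to -0.0013 for Trpm5. Without 1 library, Abcc8 ranged from -0.085 to 0.0025, Cacna1d from -0.062 to 0.0029, Cacna2d1 from -0.059 to 0.013, Cacnb3 from -0.0036 to 0.069 and Trpm5 from -0.10 to 0.20. The cause of these shifts was not tested. Members at a few reads per library are limited by depth.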

Other observations

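Some channel genes under the count filter had unequal read totals, named after their values were seen and not tested. Kcns3, a silent potassium channel subunit, had 27 reads over the BKO libraries and 6 over the Cre libraries. Asic3, a proton-gated channel of sensory neurons, had 52 reads over BKO and 29 over Cre libraries, and Kcnn2, a small-conductance calcium-activated channel, had 31 over BKO and 48 over Cre libraries.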
